A study of Homo sapiens with 6 samples.

Results

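The genes described here are the histone genes measured in a comparison of human U87 glioblastoma cells that express a dominant negative form of IRE1alpha with U87 cells that carry the empty plasmid. They were chosen by name, with earlier results of these data known. The rule took every gene with its own array probe set whose current or older symbol fitted. The symbols are those of clustered histone H1, H2A, H2B, H3 or H4 genes or H1 genes, and H2AX, H2AZ1, H2AZ2, H3-3A and H3-3B. The array named 47 such genes among 11963 genes with a single symbol, through 54 probe sets, and 4 of the 47 had more than 1 probe set. Of the 47, 40 are called replication-dependent here, 5 are variants (H2AX, H2AZ1, H2AZ2, H1-10 and H3-3A) and 2 are germ-line genes (H1-6 and H3-4). H3-3B had no probe set of its own.

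The labels give 3 arrays of U87 IRE1.NCK DN cells, called IRE1dn below, and 3 arrays of U87 ctrl cells. Both lines are U87, a human glioblastoma line, and both were plated for 16 h in medium with 10% serum and glutamine before total RNA was extracted. The IRE1dn label names 1 clone, and the ctrl label speaks of clones without saying which clone gave which array. The labels do not state whether the replicates of a group came from different cultures; the p-values therefore rest on the variation among these arrays, part of which may be technical. Signals are the authors' scaled units per probe set, and precision is limited by having 3 arrays a group.

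Histones are the proteins that DNA wraps around. The replication-dependent genes lie mostly in clusters, are expressed in S phase with DNA synthesis, and give transcripts that end in a stem-loop, bound by SLBP, in place of a poly(A) tail. Variant histone genes stand alone, are expressed through the cell cycle and give polyadenylated transcripts, and the variants they encode are placed into chromatin outside replication as well. H2AX can give both kinds of transcript, and some clustered genes also give a polyadenylated form. Which transcript form the labelling captured is not given in the sources used here, so a low signal of a clustered gene says nothing of its total transcript.

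The regions just before the transcription starts of the 4 histone genes past the test threshold are shown here, with those of H2AZ1 and H2BC12 as a variant and a replication-dependent gene that did not pass. Each is the 250 bases before the start in RefSeq's GRCh38.p14 annotation, read 5′ to 3′ on the gene's strand. They are chr7:44848088-44848337 for H2AZ2, chr11:119095466-119095715 for H2AX, chr6:26056471-26056720 for H1-2, chr1:149886683-149886932 for H2BC21, chr4:99950276-99950525 for H2AZ1 and chr6:27146859-27147108 for H2BC12, all on the minus strand. Capitals mark the CCAAT box, the TATA motif spelled TATAAA and the octamer ATTTGCAT, which is known from histone H2B promoters, each on either strand.
H2AZ2: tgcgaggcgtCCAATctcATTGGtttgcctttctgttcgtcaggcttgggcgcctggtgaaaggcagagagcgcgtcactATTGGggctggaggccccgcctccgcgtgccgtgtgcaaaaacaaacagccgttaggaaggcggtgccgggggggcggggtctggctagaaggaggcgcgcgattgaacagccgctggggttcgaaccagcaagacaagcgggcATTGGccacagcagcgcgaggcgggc
H2AX: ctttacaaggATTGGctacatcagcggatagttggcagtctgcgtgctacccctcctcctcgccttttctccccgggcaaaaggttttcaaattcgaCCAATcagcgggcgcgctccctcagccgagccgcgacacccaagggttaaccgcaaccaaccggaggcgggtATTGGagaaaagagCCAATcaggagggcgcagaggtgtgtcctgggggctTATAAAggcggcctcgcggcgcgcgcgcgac
H1-2: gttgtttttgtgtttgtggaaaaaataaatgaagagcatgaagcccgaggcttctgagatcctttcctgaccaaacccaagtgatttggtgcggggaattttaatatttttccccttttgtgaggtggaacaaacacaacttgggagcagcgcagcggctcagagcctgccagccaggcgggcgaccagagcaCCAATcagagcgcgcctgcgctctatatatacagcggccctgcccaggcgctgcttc
H2BC21: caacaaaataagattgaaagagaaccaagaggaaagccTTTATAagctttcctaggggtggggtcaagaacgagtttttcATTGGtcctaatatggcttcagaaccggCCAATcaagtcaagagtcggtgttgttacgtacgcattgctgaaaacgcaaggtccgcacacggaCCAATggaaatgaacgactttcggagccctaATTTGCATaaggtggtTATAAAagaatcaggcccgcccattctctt
H2AZ1: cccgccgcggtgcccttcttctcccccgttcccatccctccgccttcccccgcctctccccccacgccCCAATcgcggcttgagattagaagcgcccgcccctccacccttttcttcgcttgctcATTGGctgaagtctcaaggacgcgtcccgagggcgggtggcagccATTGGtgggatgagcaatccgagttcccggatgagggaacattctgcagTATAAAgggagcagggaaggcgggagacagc
H2BC12: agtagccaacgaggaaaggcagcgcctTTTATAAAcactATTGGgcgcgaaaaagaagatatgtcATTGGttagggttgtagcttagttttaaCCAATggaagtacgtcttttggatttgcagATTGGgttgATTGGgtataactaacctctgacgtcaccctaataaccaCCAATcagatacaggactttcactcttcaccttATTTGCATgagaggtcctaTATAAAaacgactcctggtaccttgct

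In these windows CCAAT occurred 4 times each in H2AZ2 and H2AX, 6 times in H2BC12, 3 times each in H2BC21 and H2AZ1 and 1 time in H1-2. The octamer was found in H2BC21 and H2BC12. The first run of capitals in H2BC12 holds the TATA motif on both strands, overlapping. The RefSeq table held a promoter for 44 of the 47 histone genes, 36 of them on chromosome 6. CCAAT was in 38 of the 44 (86.4%) and in 33.0% of all 27305 promoters of the table, 1 per gene. All 8 H2A, 11 H2B, 6 H3 and 5 H1 replication-dependent promoters held it, and 2 of 7 H4 promoters did. TATAAA was in 65.9% of the histone promoters and 11.1% of all. The octamer was in 6 of 8 replication-dependent H2A promoters and 8 of 11 H2B promoters, in none of the other histone promoters, and in 1.66% of all. H2BC21, which rose, and H2BC12, which did not pass the test, each held all 3 motifs. A match is a description of the letters, not a site of binding.

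The 6 arrays were scaled to the same trimmed mean by the authors, and their median signals lay between 18.4 and 21.03. Correlations of log2 signals were 0.976 to 0.984 within IRE1dn, 0.939 to 0.954 within ctrl and 0.841 to 0.886 between the groups. Of 9 markers of a glial and mesenchymal line, 7 lay above the filter level, while GFAP and S100B had mean signals of at most 1.55 and 0.311 in either group. The summed signal of the 9 was 12421 to 12856 in ctrl and 14359 to 21106 in IRE1dn; 6 of the 7 were positive (median change 0.43), and CAV1 and TNC rose. None of 5 endothelial, 5 leukocyte or 6 epithelial markers, and 2 of 5 neuronal markers, passed the filter. Summed signals were 19.7 to 37.1 on all arrays for the endothelial list, 25.4 to 36.8 for the epithelial list and 5.52 to 19.4 for the leukocyte list. The neuronal sum was 145.7 to 351 in ctrl and 270.3 to 319 in IRE1dn; the part of these markers in any histone result was not tested.

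On probe sets of their own, most replication-dependent histone genes had signals too low to test, and all 5 variants could be tested. Probe sets that list several symbols were left out of these counts. Of 28 such probe sets with a histone among the symbols, 16 lay above the filter level. Genes were tested where the mean log2 signal over all 6 arrays lay above the 40th percentile of genes, which equals a signal of 13.0, and 7178 of 11963 genes passed. Among the histone genes 16 of 47 passed: 5 of 5 variants, 11 of 40 replication-dependent genes and 0 of 2 germ-line genes. By histone type the replication-dependent genes that passed were 6 of 12 H2B, 3 of 8 H2A, 1 of 5 H1 (the linker histone), 1 of 8 H4 and 0 of 7 H3. A signal under 13.0 is called neither present nor absent, because it can hold background that was not measured here.

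**Figure D1:**
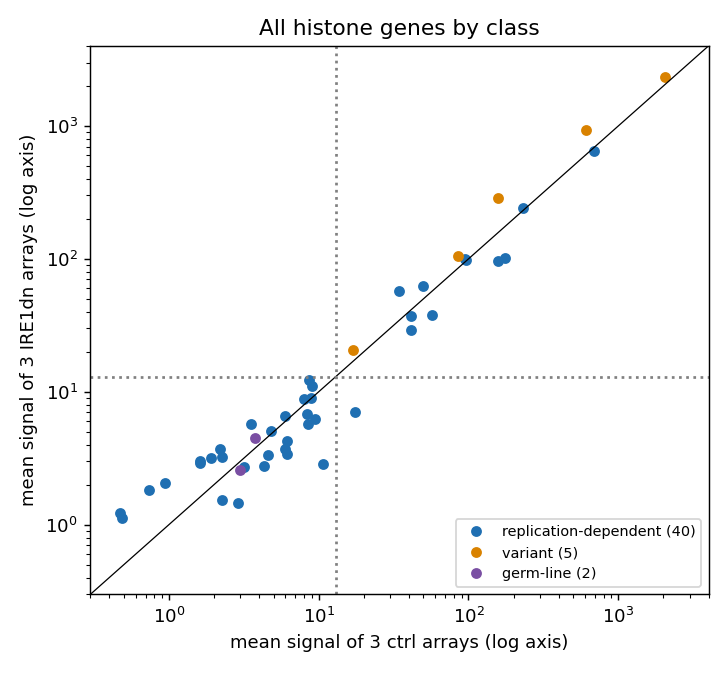
Mean signal of each of the 47 histone genes on the 3 ctrl arrays (horizontal, log axis, scaled units) against the 3 IRE1dn arrays (vertical, log axis), coloured by class. The dotted lines are the filter level of 13.0 and the solid line is equality; all 5 variants and 11 replication-dependent genes passed the filter, and most of the other replication-dependent genes lie in the lower left.

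Of the 16 histone genes tested, 3 rose and 1 fell in IRE1dn cells: the variants H2AX and H2AZ2 and the replication-dependent H2BC21 rose, and the replication-dependent linker histone H1-2 fell. Over all 7178 genes tested, 17.9% rose and 16.5% fell, so these counts of 3 and 1 among 16 are close to the background. The arrays of the groups did not overlap for 6 of the 16, against 50.2% of all genes tested. Changes are log2(signal + 1.75), IRE1dn minus ctrl, with standard errors (SE); this scale understates the change of dim genes. Calls are limma's at a Benjamini-Hochberg adjusted p under 0.05 over all 7178 genes. The count that rose was 1 without IRE1dn array 3 (H2AX), and no member fell without any 1 of the 3 IRE1dn arrays.

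**Figure D2:**
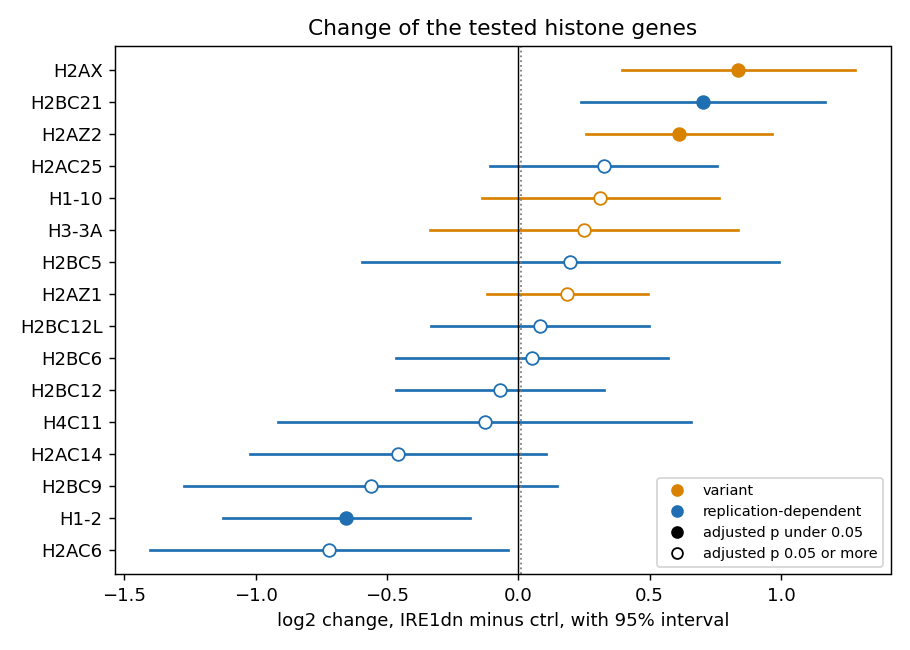
Log2 change (IRE1dn minus ctrl) of the 16 tested histone genes, with limma's 95% interval, filled where the adjusted p was under 0.05; the dotted line is the median of all genes tested. Of the variants (orange) all 5 lie to the right of 0, from 0.19 to 0.84, and the 11 replication-dependent genes (blue) spread from -0.72 to 0.70.

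H2AX encodes the variant that is phosphorylated around DNA double-strand breaks. Its signals were 150.7, 150.0 and 169.8 on ctrl arrays 1 to 3 and 365, 236 and 258 on IRE1dn arrays 1 to 3. Every IRE1dn array lay above every ctrl array, with IRE1dn array 1 the highest. The means were 157 ± 11.2 and 286 ± 68.9 (SD, n = 3 each), and the log2 change was 0.84 (SE 0.20; limma adjusted p = 0.011). The rise was seen in the probe set with the highest signal, and the other probe sets of H2AX were dim. They had means of 18.2, 17.2 and 1.68 in ctrl and 28.9, 18.0 and 1.68 in IRE1dn, and in each the groups overlapped. With the mean of all 4 probe sets H2AX changed by 0.37 and did not pass (limma adjusted p = 0.27).

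H2AZ1 and H2AZ2 encode near-identical forms of H2A.Z, the variant found next to gene starts. H2AZ2 had 522, 665 and 638 on ctrl arrays 1 to 3 and 928, 833 and 1024 on the IRE1dn arrays, without overlap. It rose by 0.61 (SE 0.16; limma adjusted p = 0.016) from 608 ± 76.0 to 928 ± 95.4 (SD, n = 3 each), and the call ended without IRE1dn array 3 (0.54; limma adjusted p = 0.064). A second H2AZ2 probe set rose as well, by 0.76 (SE 0.16) from 149 ± 7.77 to 254 ± 12.9 (SD, n = 3 each; limma adjusted p = 0.0073). This comes from a fit over single probe sets, added after the data were seen, in which 17.0% of 12069 probe sets rose and 14.2% fell. The remaining H2AZ2 probe set did not share this: its means were 684 ± 145 and 608 ± 60.8 (SD, n = 3 each), a change of -0.15 (SE 0.18; limma adjusted p = 0.55). Thus 2 of 3 H2AZ2 probe sets rose, and the mean of all 3 rose by 0.41 (limma adjusted p = 0.046).

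H2AZ1 did not pass the test. Its signals were 2027, 1890.4 and 2225 on the ctrl arrays and 2219.6, 2149 and 2639 on the IRE1dn arrays, and the groups overlapped. The change was 0.19 (SE 0.14; 95% interval -0.12 to 0.49; limma adjusted p = 0.31), and its other probe set gave 0.19 as well. Whether H2AZ1 and H2AZ2 changed unequally was not tested.

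The other variants had positive values that did not pass. H1-10, a linker histone variant, had 68.4, 84.6 and 102.7 on the ctrl arrays and 99.7, 103.9 and 111 on the IRE1dn arrays. Ctrl array 3 reached into the IRE1dn range, and the change was 0.31 (SE 0.20; 95% interval -0.14 to 0.76; limma adjusted p = 0.26). H3-3A, an H3.3 gene, had 16.1, 16.6 and 17.9 in ctrl and 26.3, 18.0 and 17.9 in IRE1dn, near the filter level (0.25, SE 0.26; limma adjusted p = 0.49). Only IRE1dn array 1 stood apart for H3-3A. Probe sets that list several symbols were left out, so this dim probe set does not give the level of all H3.3 transcripts. The median change of the 5 variants was 0.31, against 0.01 over all genes tested, and 0.45 without ctrl array 3.

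**Figure D3:**
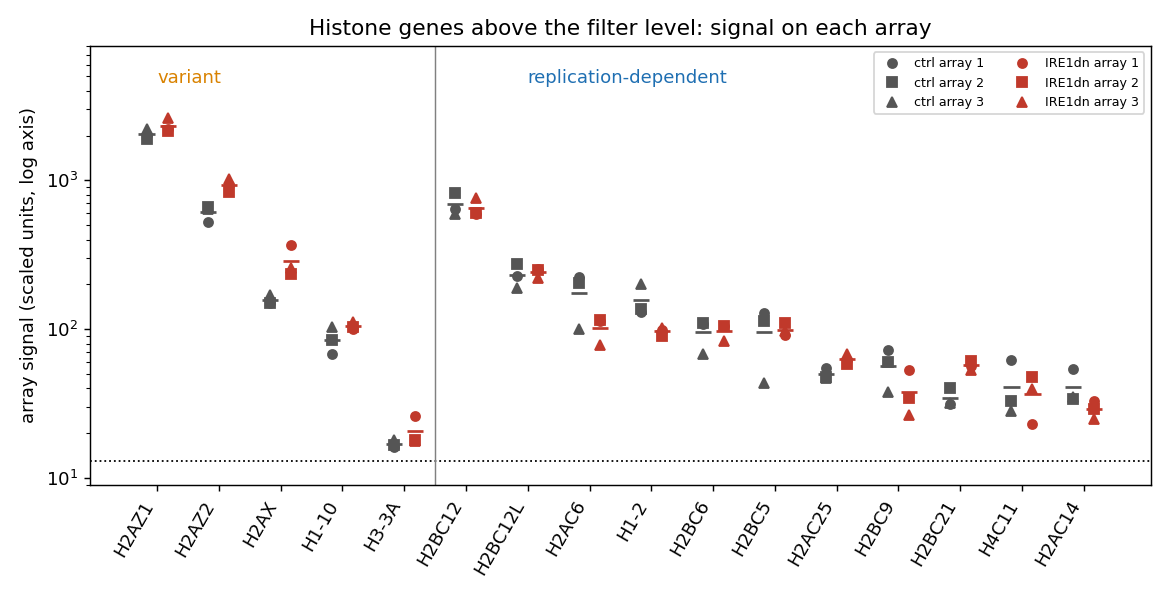
Signal of each of the 16 tested histone genes on each array (log axis, scaled units; circles, squares and triangles are arrays 1, 2 and 3; bars are group means, n = 3). H2AX, H2AZ2 and H2BC21 have every IRE1dn array above every ctrl array, H1-2 has every IRE1dn array below, and ctrl array 3 is the lowest ctrl array for most replication-dependent genes; heights of different probe sets are not comparable as transcript amounts.

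H2BC21 was the replication-dependent gene that rose. It encodes an H2B and lies in the cluster on chromosome 1. Its signals were 31.7, 40.04 and 31.9 on ctrl arrays 1 to 3 and 57.0, 61.5 and 53.0 on IRE1dn arrays 1 to 3, without overlap. It changed by 0.70 (SE 0.21; limma adjusted p = 0.027), from 34.5 ± 4.76 to 57.1 ± 4.25 (SD, n = 3 each). The call ended without any 1 IRE1dn array (limma adjusted p of 0.063 to 0.12), without ctrl array 1 (0.0503) and with no filter (0.055), while the change lay between 0.65 and 0.81 with 1 array left out.

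H1-2, a main replication-dependent linker histone, was the member that fell. It had 130.7, 136 and 203 on ctrl arrays 1 to 3 and 98.1, 90.0 and 102.6 on IRE1dn arrays 1 to 3. All IRE1dn arrays lay below all ctrl arrays, and ctrl array 3 stood above the other ctrl arrays. H1-2 fell by 0.66 on the log2 scale (SE 0.21; limma adjusted p = 0.037), from 157 ± 40.1 to 96.9 ± 6.36 (SD, n = 3 each). Without ctrl array 3 it changed by -0.46 and did not pass (limma adjusted p = 0.077). The call also ended without any 1 IRE1dn array (limma adjusted p of 0.089 to 0.14) and with no filter (0.051).

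H2AC6, an H2A gene of the chromosome 6 cluster, had the lowest value of the tested members but did not pass. Its signals were 224, 205 and 100.8 on ctrl arrays 1 to 3 and 113, 114 and 78.0 on IRE1dn arrays 1 to 3. Ctrl array 3 lay among the IRE1dn arrays, far below the other ctrl arrays. The change was -0.72 (SE 0.30; 95% interval -1.40 to -0.04; limma adjusted p = 0.092). Without ctrl array 3 it was -1.08 and passed (limma adjusted p = 0.0045), and it also passed with the replicate number as a block (limma adjusted p = 0.031), although the labels do not say that the numbers pair the arrays.

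The other H2A genes tested pointed in different directions in value. H2AC25, of the HIST3 cluster, had 54.8, 47.8 and 47.2 in ctrl and 62.1, 58.3 and 68.6 in IRE1dn, without overlap (0.32, SE 0.19; limma adjusted p = 0.22). H2AC14 had 53.8, 34.0 and 35.2 in ctrl and 32.9, 28.9 and 25.0 in IRE1dn, also without overlap but lower (-0.46, SE 0.25; limma adjusted p = 0.19). Neither passed the test, so their non-overlap is a description.

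The remaining H2B genes gave no call. H2BC12 had 646, 827 and 593 on the ctrl arrays and 596, 608 and 757 on the IRE1dn arrays, a change of -0.07 (SE 0.18; 95% interval -0.46 to 0.33; limma adjusted p = 0.79). H2BC12L, an H2B gene of chromosome 21, had 229, 275 and 188 in ctrl and 254, 251 and 221 in IRE1dn (0.08; 95% interval -0.33 to 0.50; limma adjusted p = 0.75). In both the groups overlapped and the intervals leave room for changes of either sign. H2BC6 had 108.8, 110.4 and 68.6 in ctrl and 104.9, 105.4 and 83.1 in IRE1dn, with a change of 0.05 (95% interval -0.47 to 0.57) whose sign turned with quantile normalization and with equal medians. H2BC9 had 72.2, 60.2 and 37.7 in ctrl and 53.6, 34.4 and 26.3 in IRE1dn (-0.56, SE 0.32; limma adjusted p = 0.20). Ctrl array 3 was the lowest ctrl array in each of these 4 genes.

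H2BC5 depended on 1 ctrl array. Its signals were 128.9, 113 and 43.5 on ctrl arrays 1 to 3 and 91.5, 109.3 and 97.3 on IRE1dn arrays 1 to 3. The change was 0.20 (SE 0.36; limma adjusted p = 0.70), and -0.28 without ctrl array 3. The second H2BC5 probe set gave 60.5 ± 18.7 and 96.5 ± 11.6 (SD, n = 3 each), with no overlap, and a change of 0.70 that did not pass (limma adjusted p = 0.063). The probe sets of H2BC5, H2BC6, H2BC9, H2BC12L, H2AC14 and H4C11 are marked by the array's maker (x_at) as able to bind several similar transcripts. Their values therefore cannot be assigned to 1 gene with certainty. Whether the probe sets used for H2AX, H2AC6 and H2BC21, of the s_at kind, also bind similar transcripts was not tested.

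H4C11 was the only H4 gene tested. It had 62.5, 32.8 and 28.3 on the ctrl arrays and 23.1, 47.6 and 39.9 on the IRE1dn arrays, a wide overlap in which the highest and the lowest array belonged to opposite groups. The change was -0.13 (SE 0.35; 95% interval -0.91 to 0.66; limma adjusted p = 0.81), and its sign turned with array weights.

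The 11 replication-dependent genes tested had a median change of -0.07, against 0.31 for the 5 variants and 0.01 for all genes, and 5 of the 11 were positive. The sign of that median was not stable: it was -0.28 without ctrl array 3, 0.09 without ctrl array 1, 0.07 without ctrl array 2 and 0.06 with array weights. The arrays of a group also differed. Ctrl array 3 was the lowest ctrl array for 8 of the 11, and IRE1dn array 3 the lowest IRE1dn array for 6 of the 11. The mean log2 level of the 11, relative to the ctrl mean, was 0.22, 0.10 and -0.32 on ctrl arrays 1 to 3 and -0.09, -0.05 and -0.19 on IRE1dn arrays 1 to 3, so all IRE1dn arrays lay inside the range of the ctrl arrays. For the 5 variants the same measure was -0.13, -0.01 and 0.14 in ctrl and 0.56, 0.30 and 0.46 in IRE1dn, where all IRE1dn arrays lay above the ctrl arrays.

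**Figure D4:**
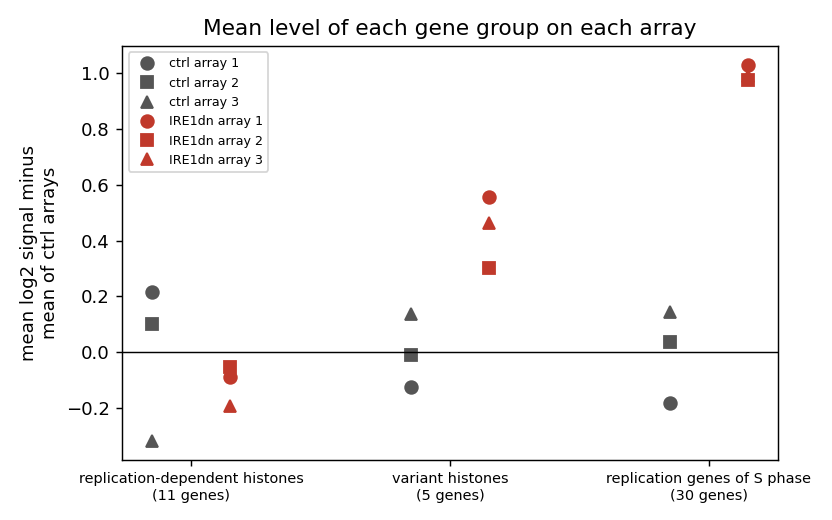
Mean log2 signal of the 11 tested replication-dependent histones, the 5 variant histones and 30 S-phase replication genes on each array, relative to the mean of the ctrl arrays (vertical axis, log2 units; grey ctrl, red IRE1dn; circles, squares and triangles are arrays 1, 2 and 3). The IRE1dn arrays lie at 0.97 to 1.03 for the replication genes and within the ctrl range of -0.32 to 0.22 for the replication-dependent histones.

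The 31 histone genes under the filter gave no call. Their mean signals ran from 0.471 to 17.5 in ctrl and from 1.12 to 12.4 in IRE1dn, and 29 of the 31 stayed under 20 on every array. In a limma fit without the filter 0 of the 31 passed at an adjusted p under 0.05 and 1 had an unadjusted p under 0.05, where 19.1% and 32.1% of all genes passed these thresholds. Those shares are over all 11963 genes, bright ones included, and not over genes as dim as these 31. The low counts therefore do not show that these histone genes were less changed than others of their signal. The gene with an unadjusted p under 0.05 is given next. That gene was H3C8, an H3 gene, with 23.9, 13.4 and 15.3 on ctrl arrays 1 to 3 and 5.96, 6.82 and 8.26 on IRE1dn arrays 1 to 3. Its probe set is also of the x_at kind, so the value cannot be assigned to H3C8 with certainty. The arrays did not overlap, and the change was -1.11 (SE 0.35; limma adjusted p = 0.058 in that fit); with the mean of a gene's probe sets, which moved the filter level, it was tested and passed (limma adjusted p = 0.016). All 7 replication-dependent H3 genes had negative values without the filter, with a median of -0.49, but lay under the filter level. H1-4, a linker histone, reached 28.5 on ctrl array 3 and at most 4.21 on the other arrays. The germ-line genes H1-6 and H3-4 had mean signals of 2.60 to 4.49.

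The genes that act on histone supply were read from lists of their own. In the list of histone transcript processing 15 genes were tested, of which 3 rose and 1 fell, with a median change of 0.20; over all genes 17.9% rose and 16.5% fell, so these counts are close to the background. SLBP, which binds the stem-loop of replication-dependent transcripts, had 393, 393 and 452 on the ctrl arrays and 897, 951 and 1040.2 on the IRE1dn arrays. Every IRE1dn array was thus far above every ctrl array, a rise of 1.22 (SE 0.15; limma adjusted p = 0.00041). CASP8AP2, needed for S-phase histone expression, rose by 1.00 (SE 0.18), from 81.1 ± 11.6 to 162 ± 6.99 (SD, n = 3 each). CSTF1, a cleavage factor, rose by 0.70 (SE 0.18), but in 1 of its 2 probe sets; the other changed by 0.14 (SE 0.18). SNRPF, of the core of spliceosomal particles, fell by 0.67 on the log2 scale (SE 0.20). The calls of CSTF1 and SNRPF ended without IRE1dn array 2 or 3, and that of SNRPF also without ctrl array 2. That of CSTF1 also ended with the mean of all probe sets (change 0.42, limma adjusted p = 0.086). In this list 0 members fell without IRE1dn array 2 or 3, and 2 fell without IRE1dn array 1 or ctrl array 1. With array weights 3 fell, and 2 fell with equal medians or with the mean of all probe sets.

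Of 10 tested genes in the list of histone gene transcription, 6 rose and 1 fell (median 0.74), against 17.9% and 16.5% of all genes. NPAT, the coactivator of the histone clusters that cyclin E and CDK2 phosphorylate, had 34.0, 29.4 and 27.4 in ctrl and 80.3, 61.3 and 54.4 in IRE1dn, a rise of 1.05 (SE 0.23; limma adjusted p = 0.0070). Its second probe set above the filter rose by 1.28 (SE 0.28). The cyclins CCNE2 and CCNE1 rose by 1.98 (SE 0.19) and 1.69 (SE 0.20), and E2F1, a G1/S transcription factor, by 1.29 (SE 0.27). The member that fell was HIRA, from 213 ± 26.5 to 137 ± 4.98 (SD, n = 3 each; -0.62, SE 0.17; limma adjusted p = 0.020), a chaperone that places H3.3; its call ended when any 1 IRE1dn array or ctrl array 2 was left out, where 0 members fell. In the polyadenylation list 0 of 9 genes passed in limma, and 2 had an unadjusted p under 0.05, both positive (median 0.17). In that list 1 gene rose with quantile normalization, with the mean of all probe sets, without IRE1dn array 1 and without ctrl array 1.

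Chaperones of newly made histones rose in 7 of 15 tested genes and fell in 0 by limma (median 0.53). Over all genes 17.9% rose and 16.5% fell by the same adjusted threshold. At an unadjusted limma p under 0.05, 8 of the list were higher and 0 lower. ASF1B, an H3-H4 chaperone, rose by 1.33 (SE 0.24) from 141 ± 50.0 to 343 ± 17.3 (SD, n = 3 each), and MCM2, a helicase subunit that binds H3-H4, by 1.26 (SE 0.19). The chromatin assembly factor subunits CHAF1A and CHAF1B rose as well: CHAF1B by 1.10 (SE 0.18), and CHAF1A from 60.5 ± 27.8 to 129.5 ± 10.96 (SD, n = 3 each). All 3 CHAF1A probe sets rose in the fit over single probe sets. The CHAF1A call on the probe set used ended without any 1 IRE1dn array (limma adjusted p of 0.054 to 0.086). The list had 4 genes that rose without IRE1dn array 2, 1 that fell without ctrl array 3 and 2 that fell with the mean of all probe sets.

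Among 15 tested chaperones and remodellers of variant histones 3 rose and 3 fell (median 0.41), close to the 17.9% and 16.5% of all genes. SUPT16H, of the FACT complex, rose by 1.19 (SE 0.24), HJURP, the chaperone of the centromere histone, by 0.83 (SE 0.22) and EP400, a remodeller that places H2A.Z, by 0.75 (SE 0.23). RUVBL1, a subunit of the H2A.Z remodellers, fell by 0.88 on the log2 scale (SE 0.20), from 319 ± 36.8 to 174 ± 34.5 (SD, n = 3 each). The other decreases were RUVBL2, at -0.61 (SE 0.17), and HIRA. The counts moved with single arrays: 1 rose without IRE1dn array 2 or 3 and 5 without ctrl array 3, and 1 fell without any 1 IRE1dn array. With array weights 6 rose. The calls of EP400 and HJURP ended without IRE1dn array 2 or 3, and that of EP400 also without ctrl array 1, with no filter and with equal medians. Of the histone genes outside the naming rule, MACROH2A1 (-0.11) and CENPA, the centromere histone (-0.57, SE 0.22; limma adjusted p = 0.071), were tested and did not pass; CENPA alone had an unadjusted p under 0.05. Of these genes 1 fell with quantile normalization and with equal medians.

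The list called replication genes of S phase was set beside the histone genes. It also holds genes of the G1/S step, such as E2F1, so its timing need not match that of the replication-dependent histones. The list shares CCNE1, CCNE2 and E2F1 with the list of histone transcription and MCM2 with that of new-histone chaperones, so these genes are counted in both. Of 30 tested, 25 rose and 0 fell by limma, against 17.9% and 16.5% of all genes. At an unadjusted limma p under 0.05, 28 were higher and 0 lower. The median was 0.91 and all 30 were positive. Among those that rose were CDT1 (1.78, SE 0.35) and CDC25A (1.76, SE 0.27, in 1 of its 2 probe sets). The count that rose was 17 to 26 with 1 array left out. In the replication-dependent histones 1 of 11 rose and 1 of 11 fell, where 17.9% and 16.5% of all genes did. The difference between these groups was not tested, and the list was chosen with earlier results of these data known.

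**Figure D5:**
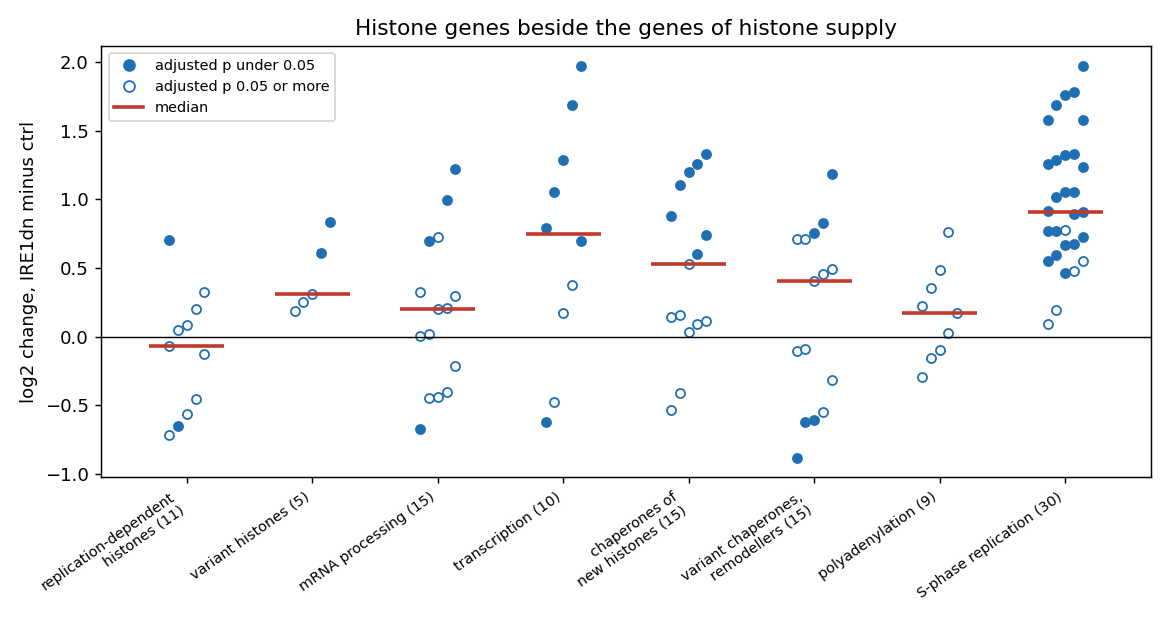
Log2 change (IRE1dn minus ctrl, vertical axis) of each tested gene in the histone classes and in the lists of histone supply, filled where limma's adjusted p was under 0.05, with red bars at the medians and the number of genes in brackets; sideways spread only separates points. The medians run from -0.07 for the replication-dependent histones and 0.31 for the variants to 0.91 for the replication genes.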

How the data were processed

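RNA of 6 U87 samples, 3 per group, was measured on 1 Affymetrix array each. The values deposited by the authors are intensities on a linear scale, 1 per probe set, made with GCOS 1.2 per the submitters' processing notes. Their summarisation, background step and labelling primer are not named in those notes or the labels. All arrays had the same trimmed mean, so a change shared by all transcripts would not be seen. Of 22277 probe sets, 62 were controls, 19064 had 1 gene symbol (19052 updated through RefSeq GRCh38.p14), 1043 had several and 2108 none. The 28 with several symbols that include a histone were left out of the members.

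Signals were taken as log2(signal + 1.75), the pseudocount being the 20th percentile of all values. The probe set with the highest mean stood for each gene. limma 3.58.1, run in R 4.3.3, tested IRE1dn against ctrl (lmFit, eBayes with intensity trend, no covariate, two-sided), with Benjamini-Hochberg adjustment over 7178 genes, and the code was tested on simulated data. Every histone gene is named or counted. Of each of the 7 pathway lists up to 4 genes past the threshold with the largest changes are named, plus SLBP and NPAT; other list genes were named after their values were seen. Members and lists were chosen with earlier results of these data known. Settings varied were the pseudocount, filter, scaling, choice of probe set, variance model, weights per array, a block on replicate number, and leaving out single arrays.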

Additional observations from a re-analysis of the deposited data

How the results depend on the processing

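Over 12 other settings the number of histone genes that rose lay between 2 and 3, and between 1 and 3 when 1 array was left out. The number that fell was 0 with no filter, 2 with the mean of all probe sets, 2 with the replicate number as a block, and 0 to 1 when 1 array was left out. Over all genes 1283 rose and 1185 fell, against 748 and 692 without IRE1dn array 2 and 793 and 707 without IRE1dn array 3. The labels do not say whether the replicate numbers pair the arrays. Deviations from the group means correlated at -0.10, 0.06 and 0.02 for numbers 1 to 3. With 3 arrays a group these values cannot decide whether the arrays were paired. Among the tested histone genes the block changed the call of H2AC6 alone. The median change of the variants was 0.46 with a 60th percentile filter and 0.22 to 0.45 with 1 array left out; that of the replication-dependent genes was -0.28 to 0.09 with 1 array left out. Changes that did not pass turned sign in some settings: H2BC6 (-0.0055 with quantile normalization, -0.021 with equal medians, -0.17 to 0.17 with 1 array left out), H4C11 (0.17 with array weights, -0.34 to 0.20 with 1 array left out), H2BC12 (-0.18 to 0.069), H2BC12L (-0.053 to 0.22) and H2BC5 (-0.28 to 0.48). The cause of these moves was not tested. Histone signals near or under 13.0 limit what could be compared.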

Other observations

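The 28 probe sets that list several symbols with a histone among them cannot be assigned to 1 gene. In a limma fit over 12069 single probe sets, added after the data were seen, 16 of the 28 lay above the filter level, 4 rose and 0 fell, where 17.0% and 14.2% of all probe sets did. Of the 4, 3 had means of 1389 to 1553 in ctrl and 2223 to 2550.0 in IRE1dn. The arrays of the groups did not overlap for these 3, as for 50.2% of all genes tested in the gene fit. Because these 3 had already passed the test, their non-overlap is a description. The fourth measured 187 ± 57.4 and 373 ± 179 (SD, n = 3 each), and its arrays overlapped. The median change of the 16 was 0.09. The genes that these probe sets list are not named here and may include histones given above as dim or not passing.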
